A study of Mus musculus with 4 samples.

Results

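The autophagy and lysosome genes described here are 39 mouse genes chosen by symbol from the 45777 genes of the table of the series, and all 39 were found. All 39 had a TPM of at least 1 in every library (TPM is a level per transcript length, scaled to the same total in each library), as 14213 genes of the table had in at least 1 library. The libraries came from C2C12 myotubes, the multinucleate muscle cells formed by a mouse myoblast line, kept in DMEM with 2% horse serum. There were 4 groups of 1 library each: clenbuterol, a β2-adrenergic agonist, with its own control, and EPS, read here as electrical pulse stimulation, with its own control. The treatment field of all 4 samples, controls included, names clenbuterol at 30 ng/ml, so the groups were taken from the sample titles. The sources used here give no duration or pulse setting.

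The EPS pair carries a conflict between labels. The sample titled EPS holds data named for the control, and the sample titled as its control holds data named for EPS. Groups follow the titles, this pair is called the EPS-titled and the control-titled library, and every direction within this pair is inverted should the data names be the correct ones. With 1 library per group no test of a treatment was possible, and no p-value or spread between cultures is given. Differences are described by size, with intervals that cover counting error only.

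Autophagy encloses cytoplasm in a double membrane, the autophagosome, which then fuses with the lysosome for digestion. The ULK1 kinase complex starts the process, a class III phosphatidylinositol 3-kinase complex marks the membrane with PI3P, and 2 ubiquitin-like conjugation systems attach ATG8 proteins (LC3 and GABARAP) to it. Cargo receptors bind ATG8 proteins, and cathepsins inside the lysosome break the cargo down. TFEB, TFE3 and MITF are transcription factors that bind an E-box sequence, the CLEAR element, in front of many lysosomal genes. In skeletal muscle the pathway removes worn proteins and mitochondria and is known to respond to fasting and exercise.

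Because TFEB, TFE3 and MITF are among the members, the 250 bases before each RefSeq gene start (GRCm38.p6) were searched for 4 palindromic motifs, which read the same on both strands. The E-box core CACGTG lay in windows of 7 of the 32 members that the RefSeq promoter table holds. These were 7 of 39 windows, or 17.9%, against 6.02% of all 32851 windows and 8.08% of the windows of genes with a TPM of at least 1. The longer TCACGTGA, which contains the core, lay in the windows of Ctsd, Atg3 and Mcoln1, against 0.785% of all windows and 1.51% of those of expressed genes. The same letters with G before and C after, the full CLEAR palindrome, lay in 0 member windows, in 0.241% of all windows and in 0.504% of those of expressed genes. The cyclic AMP response element TGACGTCA lay in the window of Mitf alone among members, in 1.55% of all windows and in 2.53% of those of expressed genes. A match describes letters and shows no binding.

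The stretches around the cores are printed because they show how differently these members carry the core, which is shorter than the full CLEAR palindrome. Capitals mark the core CACGTG, and each runs 5′ to 3′ on the strand of its gene.
Lamp1 (chr8:13159080-13159160, + strand): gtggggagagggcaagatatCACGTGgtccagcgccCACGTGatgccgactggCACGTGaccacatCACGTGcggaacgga
Atg3 (chr16:45158715-45158783, + strand): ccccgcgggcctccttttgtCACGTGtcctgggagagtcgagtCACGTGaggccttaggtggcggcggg
Mcoln1 (chr8:3500428-3500486, + strand): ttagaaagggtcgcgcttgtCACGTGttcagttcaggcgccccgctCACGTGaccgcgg
Ctsd (chr7:142387916-142387945, − strand): cccgcccctcgcccgcgtctCACGTGaccc
Ctsl (chr13:64370741-64370770, − strand): gcggcgttagaagcCACGTGctgatctaaa
Atg5 (chr10:44268305-44268338, + strand): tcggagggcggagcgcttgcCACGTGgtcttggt
Atg7 (chr6:114670944-114670973, + strand): agtcagcccatattggtggtCACGTGtgca
Lamp1, which encodes an abundant glycoprotein of the lysosomal membrane, held 4 cores, a number reached by 7 of all windows (0.0213%). Atg3 and Mcoln1 held 2 cores each in the printed stretch, and Ctsd held a second core outside it. The GENCODE M21 gene models of Mcoln1, Ctsd, Ctsl and Atg7 begin further upstream than the RefSeq start. They take in all 30 printed bases of Ctsd, Ctsl and Atg7, cores included, and 30 of the 59 of Mcoln1. Printing was cut where more than 30 bases would lie inside such a model. The Ctsl and Atg7 stretches also lie inside the gene coordinates of the deposited data. These cores are thus not upstream of every annotated start.

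Before the results, the libraries were compared as wholes. Total estimated counts ran from 32640884 to 35597074, and the smallest count of any member in any library was 409. The 8 myotube markers checked, among them Myog, Ckm and Acta1, were all expressed. Their summed TPM was 18158 with clenbuterol, 17570 in its control, 11686 in the EPS-titled library and 16039 in the control-titled library. The summed TPM of 4 myoblast and proliferation markers was 102, 108, 164 and 150 in the same order. Of 5 macrophage markers, Ptprc, Adgre1 and Tyrobp had 0 counts in every library, and the summed TPM of the list was at most 5.02. Adipocyte and endothelial markers summed to a TPM of at most 0.556, and fibroblast markers to between 214 and 235, nearly all of it Dcn. The myotube sum thus moved with the EPS comparison and with the difference between the culture pairs, and its part in the results below was not tested. Acta1 was the largest part of that sum, at a TPM of 8891 with clenbuterol and 8270 in its control. It had 5723 in the EPS-titled library and 9090 in the control-titled library, the highest of the 4. By title the other myotube markers were lower too, among them Myh3 (427 against 657), Myog (600 against 673) and Des (1410 against 1567). In bulk RNA, fewer cells of a type and less RNA per cell cannot be told apart.

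Levels differed widely between genes. The highest TPM of any member was that of Ctsd, the aspartic protease cathepsin D, at 2414 with clenbuterol, 2445 in its control, 2048 in the EPS-titled library and 2115 in the control-titled library. Lamp1 followed at 1163, 1143, 960 and 996 in the same order. Both genes were lower in the EPS pair than in the clenbuterol pair and differed little within either pair. At the low end, the TPM of Mitf ran from 5.53 to 6.51. Of the 39 members 14 had a mean TPM of at least 100, among them 4 of the 5 ATG8 genes, all 3 cathepsins and both LAMP genes. Among the genes of initiation and lipid marking, Ulk1, Ulk2, Pik3c3, Pik3r4, Atg14 and Uvrag had mean TPMs between 11.4 and 37.6. Rb1cc1, Atg13 and Atg101 had 40.7, 41.6 and 72.6, and Becn1 had the highest mean of these 10 genes, 141.

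**Figure D1:**
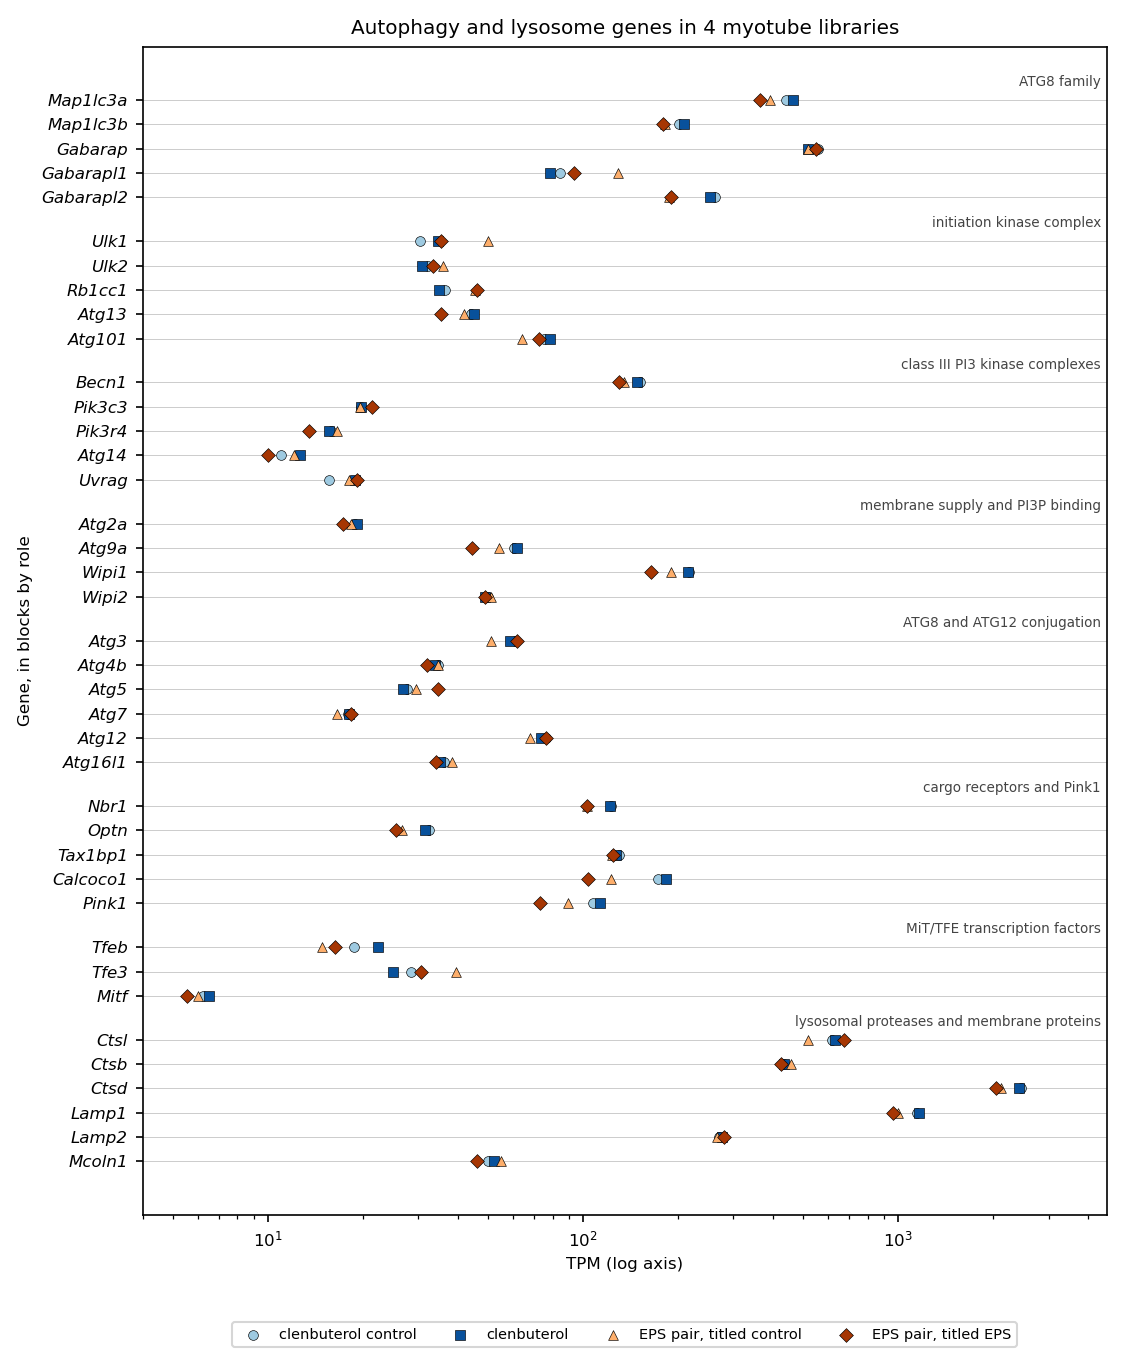
TPM (log axis) of each of the 39 members in the 4 libraries, in blocks by role, with 1 point per library. The 4 points of most genes lie close together beside the range of levels between genes, which runs from a TPM of 5.53 for Mitf to 2445 for Ctsd.

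The spread across libraries was narrow. The ratio of the highest to the lowest library in TPM plus 1 had a median of 1.21-fold over the members and 1.249-fold over the 10770 genes with a mean TPM of at least 5. It ran from 1.05-fold for Wipi2 to 1.76-fold for Calcoco1, and 5 members (Calcoco1, Gabarapl1, Ulk1, Tfe3 and Pink1) reached 1.5-fold, which is 12.8% of the members against 17.98% of those genes. The EPS-titled library was the lowest of the 4 for 20 members, the control-titled library for 10, clenbuterol for 7 and the clenbuterol control for 2. The same count over all genes is not given here, so these numbers do not set the members apart from other genes.

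The clenbuterol comparison asks which transcripts differ in myotubes given the drug. Autophagy and lysosome transcripts were nearly level between the 2 libraries. A gene was counted as higher or lower when the higher library exceeded the lower by at least 25%, both in TPM plus 1 and in CPM plus 1, in the same direction. CPM are counts scaled to equal library size with TMM factors. This is called the 25% limit. No member met it in either direction, against 3.45% of 13788 genes higher and 3.72% lower. Those genes reach down to a TPM of 1 and are not matched to the members for level. No member was 2-fold apart either, against 0.399% of genes higher and 0.0798% lower. The median log2 ratio of TPM plus 1 was −0.00 over the members and −0.01 over all genes, and the members' ratios ran from −0.19 to 0.26. The members' median is near 0 and changes sign with the scaling: it was 0.02 in CPM. The median absolute log2 ratio was 0.04 for the members and 0.08 for the genes with a mean TPM of at least 5.

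Uvrag and Tfeb had the highest ratios of the members with clenbuterol. Uvrag, whose product joins Beclin 1 in the class III kinase complex, had a TPM of 18.8 with clenbuterol, 15.6 without it, and 19.2 and 18.1 in the EPS-titled and control-titled libraries. The clenbuterol control was therefore the lowest of the 4 libraries, and the CPM ratio was 1.21-fold (95% counting interval 1.10 to 1.34). Tfeb, the main transcription factor of lysosomal genes, had a TPM of 22.4 with clenbuterol, 18.8 without it, and 16.4 and 14.8 in the EPS-titled and control-titled libraries. Clenbuterol was the highest of the 4, with a CPM ratio of 1.21-fold (1.09 to 1.35).

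Ulk1 and Atg14 lay on the same side and Tfe3 on the other. Ulk1, the initiating kinase, stood at a TPM of 34.7 under clenbuterol and 30.3 in its control, a CPM ratio of 1.16-fold (1.09 to 1.22). Atg14, which directs the kinase complex to forming autophagosomes, had a TPM of 12.6 against 11.0, a CPM ratio of 1.17-fold (1.04 to 1.31). Tfe3, the paralogue of Tfeb, had a TPM of 24.9 against 28.4 and was 1.12-fold lower (1.04 to 1.22). All 5 lay under the 25% limit. The counting interval lay wholly above 1 for 11 members and wholly below 1 for 3, which were Gabarap, Gabarapl1 and Tfe3. Over all genes tested, which include weakly expressed ones with wider intervals, these shares were 17.7% above and 13.9% below. The width of an interval depends on the count: Atg7, at 1.09-fold, had one that included 1 (0.989 to 1.20). The differences between cultures of 1 condition are not known here.

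The EPS comparison asks which transcripts differ under stimulation, and it held wider differences than the clenbuterol comparison. Read by title, Ulk1, Gabarapl1 and Tfe3 were past the 25% limit and lower in the EPS-titled library, and Ctsl was past it and higher. These are 3 of 39 members lower, 7.69%, against 8.58% of 13828 genes, and 1 of 39 higher, 2.56%, against 5.31%. Both shares lie near or under that background, which is not matched for level. No member was 2-fold apart, against 0.485% of genes lower and 0.21% higher. The median log2 ratio was −0.06 over the members and −0.02 over all genes, and 25 of 39 members (64.1%) had ratios below 0, against 54.6% of all genes. If the data names are right, Ulk1, Gabarapl1 and Tfe3 were higher under EPS and Ctsl was lower.

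Ulk1 (chromosome 5, 110784489 to 110810120, mm10) had the lowest ratio of the members. Its TPM was 35.3 in the EPS-titled library and 49.9 in the control-titled library, from 2856 and 3565 estimated counts, and 34.7 and 30.3 with clenbuterol and in its control. The control-titled library stood above the other 3, which lay close to each other. The log2 ratio of TPM plus 1 was −0.49, and the CPM was 1.38-fold lower (1.32 to 1.45). Its paralogue Ulk2 had a TPM of 33.5 and 35.9 in the EPS-titled and control-titled libraries, with a CPM 1.05-fold lower and an interval that included 1 (0.993 to 1.10).

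Gabarapl1 (chromosome 6, 129533192 to 129542331), an ATG8 gene known as a FOXO target in muscle, showed the same arrangement. Its TPM was 93.4 in the EPS-titled library and 129 in the control-titled library, and 78.4 and 84.7 with clenbuterol and in its control. Again the control-titled library stood above the other 3. The log2 ratio was −0.46 and the CPM was 1.35-fold lower (1.28 to 1.42).

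Tfe3 (chromosome X, 7762530 to 7775202) was the third gene of this kind. Its TPM was 30.6 in the EPS-titled library and 39.4 in the control-titled library, and 24.9 and 28.4 with clenbuterol and in its control. The CPM was 1.26-fold lower (1.17 to 1.35), just past the limit. Tfe3 missed the limit at a pseudocount of 5, in FPKM and in CPM by library total, where 2 members in place of 3 were lower. Tfeb stood on the other side by title, at 16.4 and 14.8, and was 1.14-fold higher (1.01 to 1.29), while the interval of Mitf included 1 (0.819 to 1.08).

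Ctsl (chromosome 13, 64361890 to 64370772), which encodes the cysteine protease cathepsin L, differed the other way. Its TPM was 673 in the EPS-titled library and 518 in the control-titled library, from 36837 and 24979 estimated counts, and 629 and 617 with clenbuterol and in its control. The control-titled library was the lowest of the 4. The CPM was 1.33-fold higher by title (1.31 to 1.35). The other cathepsins among the members differed little: Ctsb, which encodes cathepsin B, was 1.05-fold lower (1.03 to 1.07), and the interval of Ctsd included 1 (0.982 to 1.01).

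**Figure D2:**
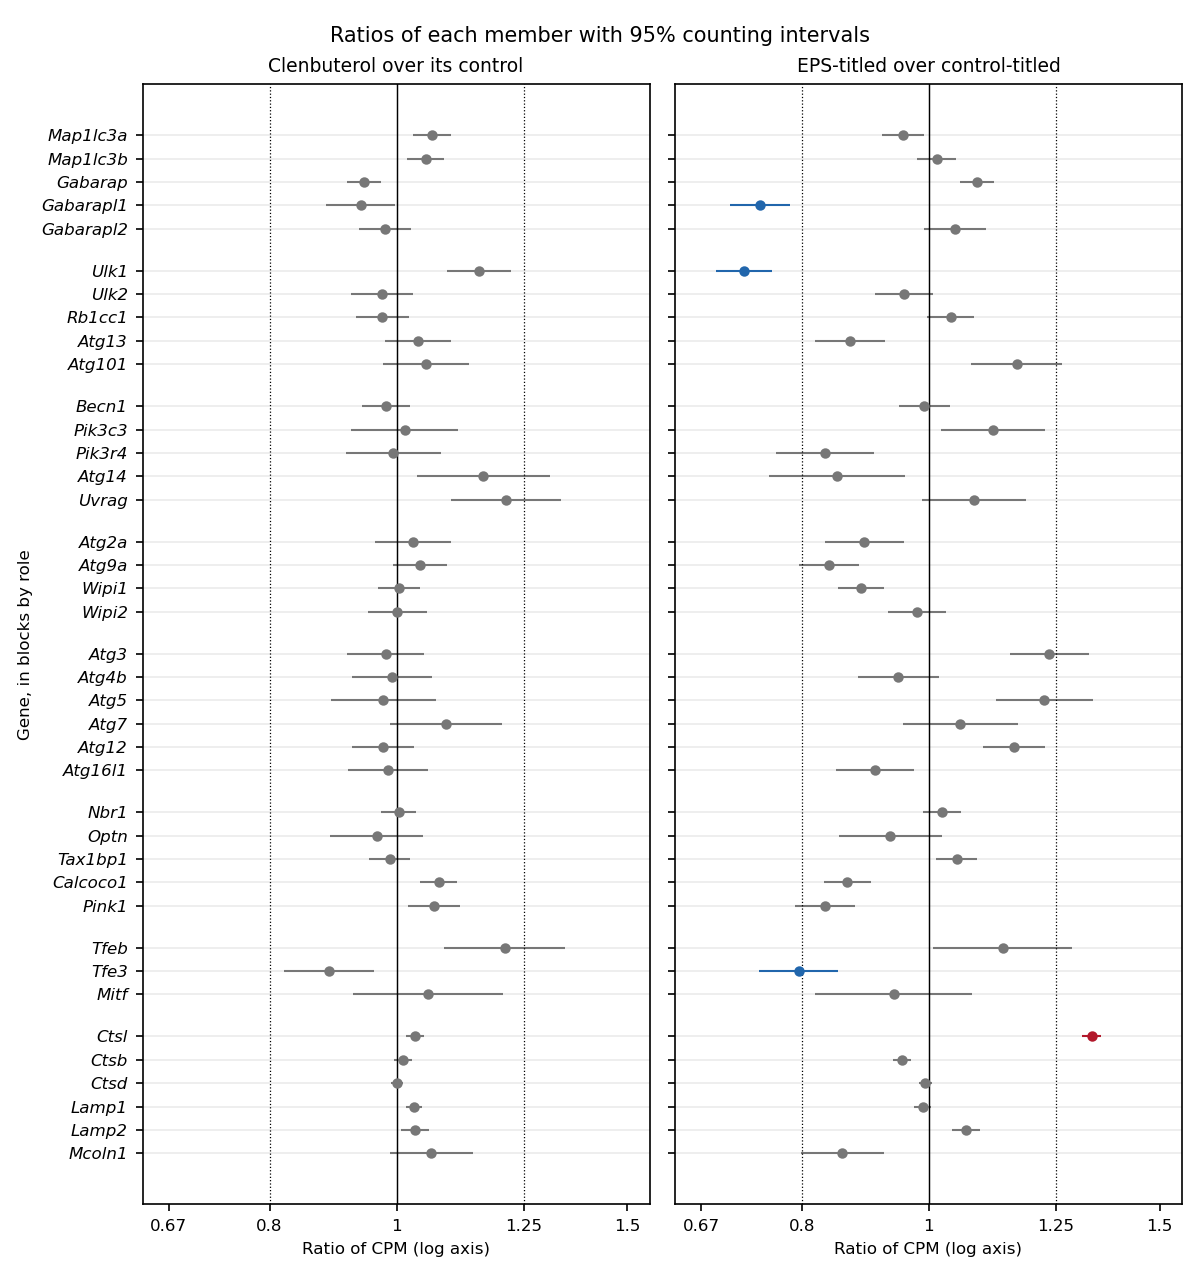
Ratio of CPM (log axis) of each member, with clenbuterol over its control on the left and EPS-titled over control-titled on the right; bars are 95% counting intervals, and dotted lines mark the 25% limit either way. No gene on the left is coloured, and on the right Ulk1, Gabarapl1 and Tfe3 (blue) lie below the lower line and Ctsl (red) above the upper line.

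The ATG8 family showed how members of 1 gene family differed in both level and ratio. Gabarap was the most abundant, at a TPM of 518 with clenbuterol, 556 in its control, 549 in the EPS-titled library and 518 in the control-titled library. Map1lc3a, an LC3 gene, followed at 463, 441, 366 and 393, and Gabarapl2 at 254, 262, 191 and 187. Map1lc3b, the LC3 gene whose protein is the usual marker of autophagosomes, had 209, 202, 180 and 182. Gabarap kept close to 1 level in all 4 libraries, while Map1lc3a, Map1lc3b and Gabarapl2 were lower in both libraries of the EPS pair. Gabarapl1 made up 9.16% of the family's summed TPM in the control-titled library, 6.77% in the EPS-titled library, and 5.15% and 5.48% with clenbuterol and in its control. The summed TPM of the family was 1378 and 1408 in the EPS-titled and control-titled libraries, so the sum differed far less than Gabarapl1.

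**Figure D3:**
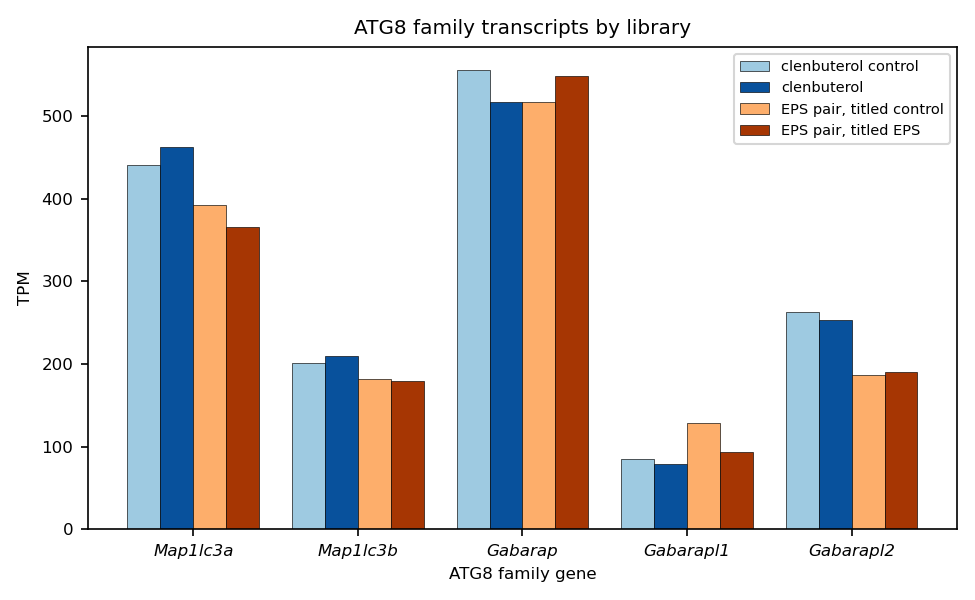
TPM of the 5 ATG8 family genes, with 1 bar per library. Gabarapl1 has its highest bar, 129, in the control-titled library, and Gabarapl2 is lower in both libraries of the EPS pair (191 and 187) than in the clenbuterol pair (254 and 262).

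Among the remaining initiation genes, Atg101 and Atg13 stood on opposite sides by title. Atg101, a stabilising subunit of the ULK1 complex, had a TPM of 72.6 in the EPS-titled library and 63.9 in the control-titled library and was 1.17-fold higher (1.08 to 1.26). Atg13, its binding partner, had 35.5 and 41.8 and was 1.15-fold lower (1.08 to 1.22). Rb1cc1, which encodes the scaffold FIP200, had 46.0 and 45.3, and its interval included 1 (0.997 to 1.08). The subunits of 1 complex thus did not move as a block.

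The class III kinase genes were likewise divided. Becn1, which encodes Beclin 1, had a TPM of 130 in the EPS-titled library and 135 in the control-titled library, and its interval included 1 (0.949 to 1.04). Pik3r4, the regulatory subunit, was 1.20-fold lower (1.10 to 1.31) and Atg14 1.18-fold lower (1.04 to 1.33). Pik3c3, the catalytic subunit, was 1.12-fold higher (1.02 to 1.23).

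Of the 4 genes of membrane supply none passed the 25% limit, and 3 had counting intervals wholly below 1 by title. Over all genes tested, which are not matched for level, 25.3% had intervals wholly below 1. Atg9a, the scramblase of the vesicles that seed the autophagosome, had a TPM of 44.3 in the EPS-titled library, 54.3 in the control-titled library, and 61.8 and 60.3 with clenbuterol and in its control. It was the lowest of the 4 in the EPS-titled library, 1.19-fold below the control (1.13 to 1.26). Wipi1, a PI3P-binding protein gene, had 165, 190, 215 and 217 in the same order and was 1.13-fold lower (1.08 to 1.17). Atg2a, which encodes a lipid transfer protein, was 1.12-fold lower in CPM (1.04 to 1.20) but 1.06-fold lower in TPM. Wipi2 varied little, with TPMs of 48.8, 51.2, 48.7 and 49.95, and its interval included 1 (0.930 to 1.03). The median log2 ratio of these 4 genes stayed between −0.17 and −0.09 over the scalings, pseudocounts and filters tried, all applied to the same pair of libraries. The median over all genes was −0.02 in TPM plus 1.

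Of the 6 conjugation genes none passed the limit, 3 had intervals wholly above 1 by title, 2 had intervals that included 1 and 1 lay wholly below. The shares over all genes tested, which are not matched for level, were 25.0% above and 25.3% below. Atg3, the E2-like enzyme of ATG8 lipidation, had a TPM of 61.7 in the EPS-titled library, 51.2 in the control-titled library, and 58.8 and 60.7 with clenbuterol and in its control. The control-titled library was the lowest, and Atg3 was 1.24-fold higher by title (1.15 to 1.32), just short of the limit. Atg5 was 1.22-fold higher (1.12 to 1.33) and Atg12, whose product is joined to ATG5, 1.16-fold higher (1.10 to 1.23). Atg7, the E1-like enzyme of both conjugations, had an interval that included 1 (0.955 to 1.17), as did the protease gene Atg4b (0.882 to 1.02). Atg16l1, whose product binds the ATG12–ATG5 conjugate, was 1.10-fold lower (1.03 to 1.18). The median log2 ratio of the 6 genes stayed between 0.14 and 0.21 over the same alternatives, again on the same pair of libraries. The median over all genes was −0.02 in TPM plus 1.

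Of the cargo receptor group, Pink1 and Calcoco1 were lower by title. Pink1, the kinase that marks damaged mitochondria for mitophagy, had a TPM of 72.8 in the EPS-titled library, 89.6 in the control-titled library, and 113 and 107 with clenbuterol and in its control. The EPS pair lay below the clenbuterol pair, and the CPM was 1.20-fold lower by title (1.14 to 1.26). Calcoco1, a receptor gene for autophagy of the endoplasmic reticulum, was 1.15-fold lower (1.11 to 1.20). Nbr1, Optn and Tax1bp1, which encode receptors of ubiquitin-tagged cargo, had CPM ratios between 0.935 and 1.05. Of the lysosomal membrane genes, the calcium channel gene Mcoln1 was 1.16-fold lower (1.08 to 1.252), Lamp2 was 1.07-fold higher (1.04 to 1.09) and the interval of Lamp1 included 1 (0.974 to 1.00).

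Counting intervals lay wholly below 1 for 15 of 39 members in the EPS comparison (38.5%, against 25.3% of all genes) and wholly above 1 for 10 (25.6%, against 25%). Intervals are narrower at higher counts. Every member had at least 409 counts, while all genes tested reach down to a TPM of 1. These shares are therefore not matched for level. The absolute log2 ratio was smaller with clenbuterol than in the EPS comparison for 31 of 39 members (79.5%), against 64.7% of genes with a mean TPM of at least 5. This order does not depend on which EPS title is right.

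Comparing the EPS pair with the clenbuterol pair also leaves the title conflict aside. By title each treatment has its own control, and the treatment, the culture and any other difference between the pairs cannot be told apart. Calcoco1 and Gabarapl2 were lower in both libraries of the EPS pair than in both of the clenbuterol pair, with the nearest libraries past the 25% limit in TPM plus 1. They are 2 of 39 members (5.13%), against 5.07% of 14213 genes, and 0 members were higher by this measure, against 7.35%. Without a size limit, 18 of 39 members (46.2%) were lower in both EPS libraries and 6 (15.4%) were higher, against 25.1% and 34.7% of all genes. These are the same 14213 genes, which reach down to a TPM of 1 and are not matched to the members for level. The summed TPM of the 39 members was 8149 and 8157 with clenbuterol and in its control, and 7241 and 7332 in the EPS-titled and control-titled libraries. The summed myotube markers, given above, were lower in the EPS pair too, although Acta1, their largest part, was highest in the control-titled library.

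Calcoco1 (chromosome 15, 102706777 to 102722178) had the widest range of the members. Its TPM was 184 with clenbuterol, 173 in its control, 104 in the EPS-titled library and 123 in the control-titled library, and the nearest libraries of the 2 pairs were 1.40-fold apart. For Gabarapl2 (chromosome 8, 111940703 to 111952915) the nearest libraries were 1.33-fold apart. Rb1cc1 lay on the opposite side, at 35.0 and 36.6 in the clenbuterol pair and 46.0 and 45.3 in the EPS pair, a gap of 1.23-fold that fell short of the limit.

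The rest of the pathway was described through 6 lists with 146 other genes. Of the 143 measured in the clenbuterol comparison, 0 were higher past the 25% limit and 1 was lower. Of the 142 measured in the EPS comparison, 3 were higher by title past the limit and 3 lower, and 0 were 2-fold apart. Without the pseudocount on CPM, 4 were lower by title, the fourth being Rptor. These shares lie under the background percentages given above.

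The V-ATPase subunits, which acidify the lysosome, held no gene past the limit among 18 in either comparison. Their median log2 ratios were 0.01 with clenbuterol and 0.03 by title in the EPS comparison. Atp6v1d was the highest subunit by title in the EPS comparison (0.37 in TPM but 0.28 in CPM), followed by Atp6v1g1 (0.24), and Atp6v0e2 (−0.22) and Atp6v0a1 (−0.19) were the lowest. With clenbuterol Atp6v1h (0.14 in TPM but 0.02 in CPM), Atp6v0d1 (0.08), Atp6v0e (−0.05) and Atp6v0a1 (−0.11) were at the ends.

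Of 41 other lysosomal hydrolase genes, 39 were measured in the clenbuterol comparison and 38 in the EPS comparison. Ctsk and Ctss, proteases of osteoclasts and antigen-presenting cells, did not reach a TPM of 1 in any library. Ctsh, the cathepsin H gene, was higher by title at a TPM of 7.21 against 4.81 (1.53-fold in CPM, 1.20 to 1.96), on 183 and 108 counts. Gm2a followed at a log2 ratio of 0.30, and the α-galactosidase gene Gla (−0.27) and the α-iduronidase gene Idua (−0.29) were the lowest. With clenbuterol Aga stood at 0.40 in TPM but 0.15 in CPM, Gla at 0.25, Arsa at −0.14 and Pla2g15 at −0.26.

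In the list of selective autophagy receptors, Sqstm1, which encodes the receptor p62, stood with Ulk1 and Gabarapl1. Its TPM was 718 with clenbuterol, 681 in its control, 721 in the EPS-titled library and 961 in the control-titled library. The control-titled library was again the one above the other 3, with a CPM 1.30-fold lower by title (1.28 to 1.32). Sqstm1 is also a target of NRF2. In this list Wdfy3 stood at a log2 ratio of −0.29 by title, and Fundc1 (0.17) and Stbd1 (0.22) were the highest. With clenbuterol Wdfy3 stood at 0.09, Sqstm1 at 0.08 and Stbd1 at −0.24.

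Among 30 other autophagy genes, Atg4a, a paralogue of the member Atg4b, was higher by title. Its TPM was 35.9 in the EPS-titled library and 24.2 in the control-titled library, and 34.3 and 32.6 with clenbuterol and in its control. The control-titled library was the lowest, and the CPM ratio was 1.39-fold (1.27 to 1.52). Atg16l2 had the lowest log2 ratio by title and the highest with clenbuterol in TPM (−0.52 and 0.51) but stood at −0.11 and 0.11 in CPM. The other ends of this list by title were Atg2b (−0.26) and Atg10 (0.21), and with clenbuterol Vmp1 (−0.26), Atg10 (−0.23) and Atg4c (0.19).

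Of the genes that sense nutrients at the lysosome, Fnip2 was lower by title and Lamtor5 higher. Fnip2, a partner of folliculin, had a TPM of 8.63 in the EPS-titled library, 13.0 in the control-titled library, and 6.36 and 5.65 with clenbuterol and in its control. The EPS pair lay above the clenbuterol pair, and by title Fnip2 was 1.44-fold lower (1.32 to 1.57). Lamtor5, a subunit of the Ragulator complex, was 1.30-fold higher (1.21 to 1.39). Rptor, the mTORC1 subunit gene, stood at a log2 ratio of −0.39 in TPM plus 1 and −0.32 in CPM plus 1, just short of the limit, which it passed in CPM without the pseudocount (1.251-fold lower, 1.21 to 1.30). Prkab1 stood at 0.19. With clenbuterol Fnip2 (0.15) and Stk11 (0.11) were the highest of this list, and Prkab1 (−0.22) and Prkab2 (−0.29) the lowest. Of the lysosomal membrane and sorting genes only Cln3 passed the limit, 1.53-fold lower by title (1.04 to 2.28) on 47 and 65 counts. Sort1 (−0.32), Ostm1 (0.24) and Cd63 (0.27) were the other ends of that list by title, and Ctns (−0.32), Pip4p1 (−0.29), Mfsd8 (0.14) and Cln3 (0.19) with clenbuterol.

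**Figure D4:**
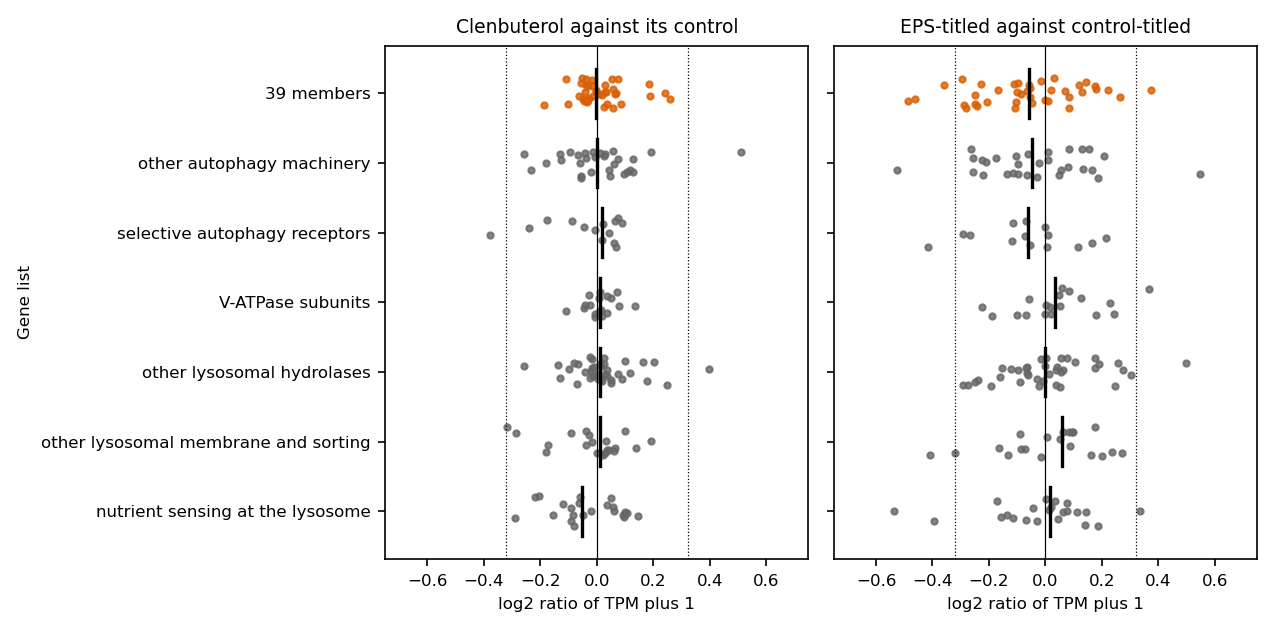
log2 ratio of TPM plus 1 of each measured gene in the 39 members (orange) and 6 other pathway lists (grey), with clenbuterol on the left and the EPS pair by title on the right; thick bars are list medians and dotted lines mark the 25% limit. List medians run from −0.06 to 0.06, and the points spread more widely on the right.

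Between the culture pairs, 1 gene of the other lists stood far apart. Bnip3, a mitophagy receptor that hypoxia is known to induce, had a TPM of 259 in the EPS-titled library and 312 in the control-titled library, against 74.6 and 71.6 with clenbuterol and in its control. The nearest libraries were 3.44-fold apart, a wider gap than that of any member. Its paralogue Bnip3l had 140 and 140 against 96.1 and 93.2. In all, 6 of 143 measured genes of these lists (4.2%) were past the 25% limit and higher in both EPS libraries, and 9 (6.29%) were lower, against 7.35% and 5.07% of all genes. Bnip3 and Bnip3l were named after their values were seen.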

How the data were processed

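RNA was sequenced from 4 C2C12 myotube libraries, 1 per group. Reads were aligned with HISAT2 to mm10, per the submitters' processing notes, and the poly(A) libraries were strand-specific, per the labels. Which program counted reads, with what annotation and whether by strand, is not stated in the sources used here. The authors deposited estimated counts of reads per gene, FPKM and TPM in 1 table of the series. They also deposited coverage (a signal, mean depth per base), FPKM and TPM per library. From the single-library tables only gene coordinates were used.

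Each column was matched to the sample whose deposited data carry its name. Ratios were taken on the scale log2(TPM + 1), for genes that reached a TPM of 1 in either library of the pair compared. The 25% limit uses CPM plus 1. Such ratios understate differences of weakly expressed genes. CPM used TMM factors (edgeR 4.0.16, R 4.3.3), and exact Clopper-Pearson 95% intervals cover counting error only. DESeq2 1.42.0 size factors, FPKM, library totals, other pseudocounts, filters and limits were the alternatives. Python 3.11.15, numpy 2.4.6, pandas 2.3.3, scipy 1.17.1 and matplotlib 3.10.9 did the rest, and the interval and call code was tested on simulated data.

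The members and lists were chosen with earlier results of these data known. All members are described. From each other list, the 2 highest and 2 lowest ratios of each comparison are named. The values of 1 gene of these lists are not reported here. The promoter stretches were widened to every member with a CACGTG core after the matches were seen. Of the members, 16 overlap another gene. Ctsb, Map1lc3b and Atg12 overlap an opposite-strand gene with a mean TPM of at least 10, whose reads cannot be told apart if strand was not used.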

Additional observations from a re-analysis of the deposited data

How the results depend on the processing

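At a limit of 1.5-fold in place of the 25% limit, 0 members were higher and 0 lower in the EPS comparison, and with a 1.5-fold gap 0 members were lower in both libraries of the EPS pair. Grouped by the names of the deposited data, the EPS median was 0.0595, with 3 members higher and 1 lower. The clenbuterol counts stayed at 0 under every pseudocount, filter, unit and limit tried, and the median there ran from −0.01 to 0.02. The EPS median by title stayed between −0.06 and −0.00. Of the 39 members, 34 kept 1 sign in the EPS comparison and 32 in the clenbuterol comparison under all units, pseudocounts, filters and the centring. These alternatives all use the same libraries, so a kept sign says nothing about replicate cultures. The share over all genes is not given here. With no pseudocount on CPM, an alternative chosen after seeing the data, the counts of members were as before in both comparisons, and Rptor was the 1 gene of the other lists whose call differed. The background rose from 3.45% to 5.28% of genes higher and from 3.72% to 5.89% lower with clenbuterol, and to 7.10% higher and 10.98% lower by title in the EPS comparison. No paired analysis was possible because each group holds 1 library. The depth gave at least 409 counts per member, and the spread between replicate cultures was not measured.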
